A study of Mus musculus with 6 samples.

Results

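Primitive endoderm is the layer of the blastocyst that separates from the epiblast, the source of embryonic stem cells, and goes on to form the visceral and parietal endoderm of the yolk sac. The 10 genes described here, Gata6, Gata4, Sox17, Sox7, Foxa2, Pdgfra, Dab2, Lama1, Lamb1 and Cubn, were chosen by symbol as genes known to mark this layer, and all 10 were found among the 23889 gene symbols that every table lists. They were followed through 6 mouse RNA sequencing libraries. Of these, 3 were androgenetic haploid embryonic stem cells (AG-haESCs), lines A129-2, AOS-14 and AOS-16, labelled with an F1 hybrid C57BL/6 X DBA/2 strain. Their genome came from a sperm head placed in an oocyte without its spindle, and the cells grew on feeders in serum replacement with 2i, a mix that inhibits the kinases MEK and GSK3, and were sorted as haploid cells in G0/G1. A further library was labelled round sperm, of the same strain, and carries the same culture and sorting text as the haploid lines. The remaining 2 were embryonic stem cells labelled XX (ESC XX), of an Oct-GFP (C57) background, grown in serum, LIF and 2i and collected after a step to remove feeders. Each haploid line is a single library, and nothing in the labels says that the ESC XX libraries are separate cultures.

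In the inner cell mass, FGF4 made by epiblast cells acts through FGF receptors and the MEK to ERK cascade to switch on GATA6 in neighbouring cells, while NANOG holds the epiblast state. GATA6 stands at the head of a series of transcription factors that includes GATA4, SOX17, SOX7 and, later in visceral endoderm, FOXA2. The differentiated layer carries PDGFRA on its surface, takes up nutrients through CUBN and the endocytic adaptor DAB2, and secretes laminin from the LAMA1 and LAMB1 chains. 2i inhibits MEK and so blocks the signal that favours primitive endoderm, and cultures of embryonic stem cells in serum are known to hold small numbers of cells that express these genes.

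RefSeq promoter windows (build GRCm38.p6, 250 bases before to 50 bases after a start site) were found for 5 of the 10 members, Cubn, Foxa2, Pdgfra, Lamb1 and Dab2. The windows of Dab2, Lamb1 and Cubn are shown because 1 haploid line stood apart at Dab2 and Lamb1 and Cubn was higher in round sperm. Capitals mark the GATA core GATAA, or TTATC where it lies on the other strand. Cubn lies at chr2:13491827-13492126 on the minus strand, Lamb1 at chr12:31265043-31265342 on the plus strand, and the Dab2 windows at chr15:6299539-6299838 (upstream start) and chr15:6386498-6386797 (downstream start) on the plus strand.
Dab2 upstream: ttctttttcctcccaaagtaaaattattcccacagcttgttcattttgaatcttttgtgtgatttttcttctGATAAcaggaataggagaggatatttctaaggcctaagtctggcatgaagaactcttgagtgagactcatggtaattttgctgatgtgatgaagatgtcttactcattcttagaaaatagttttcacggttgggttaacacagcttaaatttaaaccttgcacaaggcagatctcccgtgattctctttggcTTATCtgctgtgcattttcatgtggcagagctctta
Dab2 downstream: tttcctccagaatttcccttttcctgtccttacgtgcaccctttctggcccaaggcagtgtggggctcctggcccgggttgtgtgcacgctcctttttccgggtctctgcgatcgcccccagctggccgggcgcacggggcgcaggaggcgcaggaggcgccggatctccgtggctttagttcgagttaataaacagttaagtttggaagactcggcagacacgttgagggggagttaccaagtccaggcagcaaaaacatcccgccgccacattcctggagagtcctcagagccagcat
Lamb1: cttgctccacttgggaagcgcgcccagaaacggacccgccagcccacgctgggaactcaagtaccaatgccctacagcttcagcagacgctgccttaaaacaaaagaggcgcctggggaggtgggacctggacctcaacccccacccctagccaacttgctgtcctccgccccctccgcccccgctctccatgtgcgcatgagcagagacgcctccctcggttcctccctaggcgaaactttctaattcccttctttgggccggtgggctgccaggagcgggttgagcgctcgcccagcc
Cubn: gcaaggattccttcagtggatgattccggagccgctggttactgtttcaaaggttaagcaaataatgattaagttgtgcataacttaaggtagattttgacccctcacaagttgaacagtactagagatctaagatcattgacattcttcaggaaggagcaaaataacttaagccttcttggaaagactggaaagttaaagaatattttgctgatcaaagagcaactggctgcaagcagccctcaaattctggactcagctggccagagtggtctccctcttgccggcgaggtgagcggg
The upstream Dab2 window held GATAA at position -178 from the start site and TTATC at position 15. No match lay in the downstream Dab2 window or in those of Lamb1, Cubn and Pdgfra, and 1 of the 3 Foxa2 windows held a match. Of all 32851 windows of this length, 25.4% held the core on either strand. The SOX core ACAAT, or ATTGT on the other strand, was in none of the 8 member windows read, which do not include Gata6, and in 31.0% of all windows.

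Expression is given as FPKM (fragments per length of transcript and per depth of the library) as deposited. Where ESC XX is compared it is given as TPM, the same values rescaled so that every library has 1 common total, because the ESC XX tables were normalised apart. A library's depth, estimated from the steps of low FPKM values, lay between 8.97M fragments in A129-2 and 19.6M fragments in AOS-14, so that 1 fragment of Foxa2 was worth about 0.0576 FPKM in A129-2. Between the ESC XX libraries the spread was near counting noise, with a median chi-square 1.16 times that of chance (genes with 10 to 100 fragments) or 1.43 times it (100 to 1000 fragments). The pairs of haploid lines had 5.86 to 12.5 times and 17.4 to 46.2 times. No SD is given for the 2 ESC XX values. The cell labels were checked against marker lists. 9 epiblast factors, Nanog among them, summed to between 3603 and 4083 TPM in the haploid lines, to 218 TPM in round sperm and to 3819 and 3734 TPM in ESC XX. Klf4 made up most of the round sperm sum, at 176 TPM, and stood at 91.2, 164 and 158 TPM in A129-2, AOS-14 and AOS-16. The 6 spermatid genes summed to at most 2.54 TPM in a haploid line, 29735 TPM in round sperm and at most 0.757 TPM in ESC XX. In bulk RNA, fewer cells of a type and less RNA per cell cannot be told apart.

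Primitive endoderm genes stood at low levels in AG-haESCs. Summed over the 10 members, the haploid lines held 25.9 (A129-2), 28.8 (AOS-14) and 44.5 TPM (AOS-16), round sperm held 23.5 TPM, and ESC XX held 60.5 and 59.2 TPM. In comparison, Nanog alone stood at 797, 543 and 531 TPM in the 3 lines in the same order, at 0.687 TPM in round sperm and at 791 and 792 TPM in ESC XX. Members reaching an FPKM of 1 numbered 4 in A129-2, 5 in AOS-14, 4 in AOS-16, 3 in round sperm, and 5 and 4 in the ESC XX libraries. The 2 laminin chains supplied most of the summed TPM in AOS-14, AOS-16 and ESC XX, Dab2 was the highest member in A129-2, and Sox17 was the highest in round sperm.

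**Figure D1:**
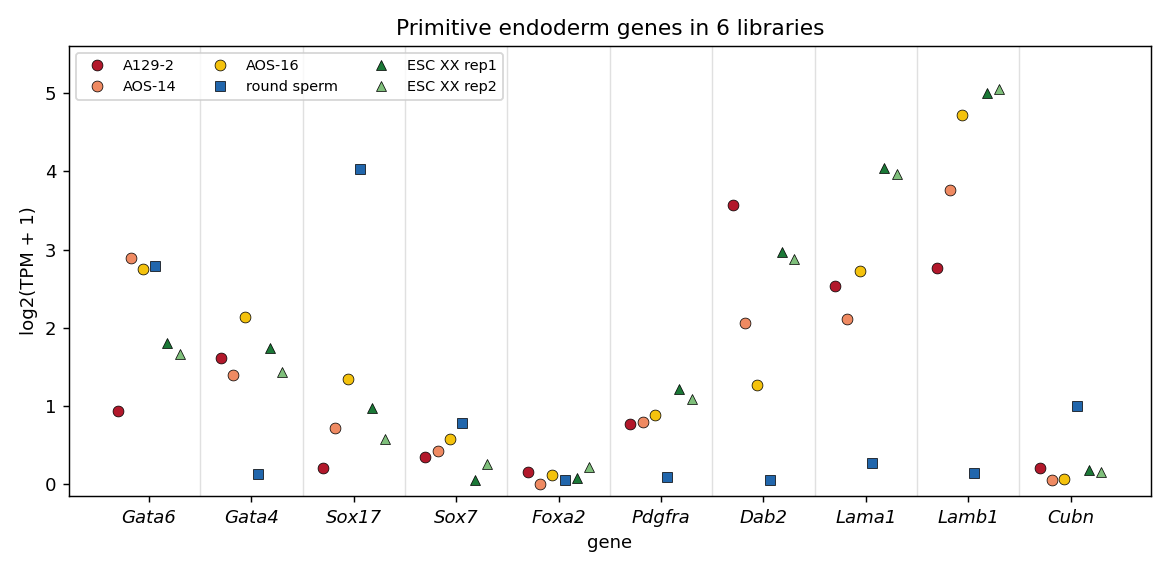
Levels of the 10 primitive endoderm genes on a log2(TPM + 1) axis, 1 point per library (circles, AG-haESC lines; square, round sperm; triangles, ESC XX). Sox17 stood at 15.3 TPM in round sperm and at no more than 1.54 TPM elsewhere, Lama1 and Lamb1 were highest in ESC XX, and Foxa2 lay near 0 throughout.

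Across the haploid lines, Lamb1 ranked first with 8.53 ± 5.43 FPKM (mean ± SD, n = 3). Dab2 (2.86 ± 2.45 FPKM), Gata6 (2.71 ± 2.07 FPKM) and Lama1 (2.62 ± 0.397 FPKM) followed and did not differ among themselves beyond their spread. Gata4 came next at 1.36 ± 0.441 FPKM, and Sox17 (0.460 ± 0.381 FPKM) and Pdgfra (0.450 ± 0.0837 FPKM) were level with each other. Sox7 stood at 0.220 ± 0.0696 FPKM. Cubn (0.0436 ± 0.0302 FPKM) and Foxa2 (0.0356 ± 0.0311 FPKM) ended the order and overlapped. With the longest annotated transcript as length, Foxa2 corresponded to about 1 fragment in A129-2, none in AOS-14 and about 1 in AOS-16, so its level could not be told from a few stray fragments at this depth.

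Against round sperm, the members did not move in 1 direction. Gata4 and Lama1 were higher in AG-haESCs and Sox17 and Cubn were lower, by limma on log2(FPKM + 1) with 3 libraries against 1. Calls needed an adjusted p (Benjamini-Hochberg, over the 15938 genes tested) below 0.05 together with a log2 difference of 1 or more in size, on a scale that understates the change of low genes, and 22.8% of genes tested rose, 39.1% fell and 61.9% were called in either direction. Of the 10 members, 7 reached the FPKM of 1 in at least 1 of the 4 libraries that testing required. Gata4, Dab2, Lama1 and Lamb1 did so through the haploid lines alone, Sox17 and Cubn through round sperm alone, and Gata6 through both, so that the count of 2 that rose and 2 that fell is a description. With a single round sperm library, the spread behind each test is that of the 3 lines, which limma moderates across genes, and no other round sperm library checks the level there.

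Sox17, a SOX factor that drives primitive endoderm differentiation, was low in the haploid lines and high in round sperm. It had 0.0802, 0.458 and 0.842 FPKM in A129-2, AOS-14 and AOS-16, against 19.0 FPKM in round sperm. All 3 lines lay far below round sperm. In TPM they were at 0.158, 0.648 and 1.54, against 15.3 in round sperm. That gap was narrower, since the FPKM of all genes summed to a higher total in round sperm. The difference and fold that follow are for FPKM as deposited. Sox17 fell by 3.81 on the log2 scale (SE 0.38, limma adjusted p = 0.00778), and round sperm stood 41.2-fold above the mean of the lines. Without AOS-14 the adjusted p was 0.0557 and the call was lost. A shortened testis form of SOX17 that lacks the complete DNA-binding domain is known from mouse spermatogenic cells, and the deposited values are per gene and do not separate transcripts. Sox7, the closest relative of Sox17 among the members, had 0.141, 0.247 and 0.273 FPKM in A129-2, AOS-14 and AOS-16, against 0.898 FPKM in round sperm, and was below the filter.

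Gata6, the factor at the head of the programme, had 0.470, 4.54 and 3.13 FPKM in A129-2, AOS-14 and AOS-16, against 7.32 FPKM in round sperm. Each line was below round sperm as deposited, but in TPM AOS-14 (6.42) lay above round sperm (5.91). The log2 difference was -1.37 ± 0.99 (SE, limma adjusted p = 0.310) and Gata6 was not called. 1010001N08Rik, an antisense gene whose exons overlap those of Gata6, stood at 0, 0.432 and 0.356 FPKM in A129-2, AOS-14 and AOS-16, against 0.370 FPKM in round sperm, and as the use of strand is not given in the sources used here, its reads may be counted with those of Gata6. Sox17, Pdgfra, Dab2 and Cubn also overlap other annotated genes, which were not analysed here. Gata4, which acts beside GATA6, had 1.05, 1.16 and 1.86 FPKM in A129-2, AOS-14 and AOS-16, against 0.115 FPKM in round sperm. All lines were above round sperm, with a log2 difference of 1.06 ± 0.26 (SE, limma adjusted p = 0.0459). The Gata4 call was lost without A129-2 (adjusted p = 0.0876), without AOS-14 (adjusted p = 0.134) and without AOS-16, where the difference was 0.92. Foxa2, a forkhead factor of visceral endoderm, was at 0.0576, 0 and 0.0494 FPKM in the same 3 lines and at 0.0491 FPKM in round sperm, which is about 1 fragment in each library where it was above 0.

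The laminin chains were abundant in the lines relative to round sperm. Lama1, the alpha chain of laminin-111 in the early basement membrane, had 2.45, 2.35 and 3.08 FPKM in A129-2, AOS-14 and AOS-16, against 0.256 FPKM in round sperm. The lines lay close together and above round sperm, and Lama1 rose by 1.52 ± 0.16 (log2 ± SE, limma adjusted p = 0.00829), with calls kept without each line in turn. Lamb1, the beta chain of the same trimer, had 2.95, 8.85 and 13.8 FPKM in A129-2, AOS-14 and AOS-16, against 0.131 FPKM in round sperm. Its difference of 2.88 ± 0.96 (SE) was larger than that of Lama1 but the lines were spread wide, and it was not called (limma adjusted p = 0.0882). Without A129-2, the lowest line, it was called (adjusted p = 0.0353).

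Among the genes of uptake and signalling, Dab2, an endocytic adaptor, had 5.56, 2.25 and 0.778 FPKM in A129-2, AOS-14 and AOS-16, against 0.0511 FPKM in round sperm. All lines were higher, but the difference of 1.68 ± 0.93 (SE, limma adjusted p = 0.213) was not called. Cubn, the receptor that takes up vitamin B12 with intrinsic factor and several other ligands, had 0.0784, 0.0272 and 0.0252 FPKM in A129-2, AOS-14 and AOS-16, against 1.24 FPKM in round sperm. It fell by 1.10 (SE 0.04, limma adjusted p = 0.00120), a difference that was smaller than 1 after rescaling to the same total (-0.89) and after quantile normalization (-0.80). Pdgfra, the receptor of PDGF-A, had 0.359, 0.523 and 0.469 FPKM in A129-2, AOS-14 and AOS-16, against 0.0865 FPKM in round sperm. It was under the filter, and without a filter its difference of 0.41 ± 0.08 (SE, limma adjusted p = 0.0383) was under the size needed for a call. The median log2 difference of all genes was -0.49 as deposited, 0.40 after rescaling and 0.31 after quantile normalization. Relative to that median as deposited, Gata4 stood at 1.56, Lama1 at 2.02, Lamb1 at 3.37, Dab2 at 2.17, Gata6 at -0.87, Cubn at -0.61 and Sox17 at -3.31.

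**Figure D2:**
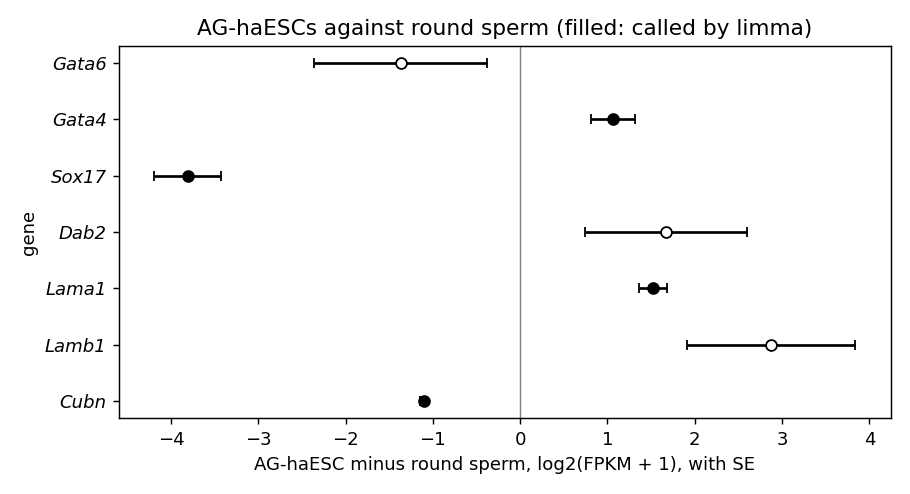
Log2 difference of FPKM + 1 between AG-haESCs (3 lines) and round sperm (1 library) for the 7 members tested, with the standard error from limma. Filled points were called, with Gata4 and Lama1 to the right of 0 and Sox17 and Cubn to the left, and the wide bars of Gata6, Dab2 and Lamb1 belong to members that were not called.

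Some members are also made by somatic cells of the testis or by endothelium, and the markers of those cells were read in the same libraries. For Sox17 and Sox7, which endothelium expresses, 5 endothelial markers summed to 98.1, 56.2 and 75.7 TPM in A129-2, AOS-14 and AOS-16, against 2.80 TPM in round sperm. Tek stood at 1.48 TPM in round sperm, Cldn5 at 0.610, Pecam1 at 0.413 and Cdh5 at 0.293 TPM, and Emcn was listed at 0. Cdh5 was lower in the lines, at 0.0563, 0.151 and 0.0899 TPM. Pecam1, which embryonic stem cells express, made up most of the sum in the lines. For Gata4, which Sertoli cells express, 7 Sertoli markers summed to 55.1, 39.7 and 32.2 TPM in the lines, against 7.85 TPM in round sperm, and Aard made up most of this in the lines. Fshr was listed at 0 in all 3 lines and at 0.0343 TPM in round sperm. Dhh was higher in round sperm, at 2.77 TPM against 0.196, 0.165 and 0.703 TPM in the lines. The other Sertoli markers in round sperm were Aard at 4.20, Cldn11 at 0.310, Amh at 0.253, Wt1 at 0.230 and Sox9 at 0.0563 TPM. Hsd3b1 and Lhcgr of the 7 Leydig markers, whose sum was 9.42, 7.74 and 5.53 TPM in the lines and 3.10 TPM in round sperm, were listed at 0 in every one of these libraries. The rest stood above 0 in round sperm, Insl3 at 1.52, Cyp11a1 at 0.612, Cyp17a1 at 0.497, Star at 0.408 and Hsd17b3 at 0.0683 TPM. For Dab2, which macrophages express, 5 macrophage markers summed to 17.4, 16.4 and 21.3 TPM in the lines and 3.62 TPM in round sperm, and to 49.3 and 45.1 TPM in ESC XX. Emr1, also called Adgre1, was listed at 0 in the lines and stood at 2.50 TPM in round sperm, and Lyz2 was listed at 0 in the lines and stood at 0.0867 TPM in round sperm. Cd68 made up most of the sum in the lines, at 17.0, 13.4 and 19.5 TPM, against 0.243 TPM in round sperm. Cd14 stood at 0.324, 2.59 and 1.68 TPM in the lines and 0.286 TPM in round sperm. Csf1r stood at 0.0580, 0.369 and 0.139 TPM in the lines and 0.503 TPM in round sperm. For Pdgfra and some laminin genes, which fibroblasts express, 12 fibroblast markers summed to 284, 329 and 535 TPM in the lines and 17.3 TPM in round sperm. S100a4 was listed at 0 in round sperm, while Postn stood there at 7.13 TPM and Tagln at 4.60 TPM. Fn1, named after its value was seen, was called as higher in the lines, and no other marker of this list was called. The part of these cell types in the differences was not tested.

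The haploid lines differed from each other at Gata6, Dab2 and Lamb1. A line was taken to stand apart where it lay at least 1 log2 unit above, or below, both other lines, which no test accompanies because each line has 1 library. Of 12637 genes with an FPKM of 1 or more in a line, 11.2% had a line apart. A129-2 stood below both others for 3.04% of genes and above both for 3.33%. Of the 5 members that passed this filter (Gata6, Gata4, Dab2, Lama1 and Lamb1), 3 had a line apart, and in each case that line was A129-2. Gata6 in A129-2 lay 1.91 log2 units below AOS-14 and 1.49 below AOS-16. Lamb1 lay 1.32 below AOS-14 and 1.91 below AOS-16. Dab2 ran the other way, and in A129-2 lay 1.02 above AOS-14 and 1.88 above AOS-16. Lama1 and Gata4, in contrast, differed by no more than 0.29 and 0.48 log2 units between any 2 lines.

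The direction at Gata6 and Dab2 held with a pseudocount of 0.1, after rescaling, with short genes left out and after quantile normalization. Lamb1 in A129-2 met the bound in all of these but rescaling, where the nearest line was AOS-14 at 12.5 TPM against 5.78 TPM in A129-2. Sox17 and Pdgfra did not reach an FPKM of 1 in any line. Sox17 was lowest in A129-2 and highest in AOS-16, at 0.158 and 1.54 TPM, which is about 2.23 and 27.5 fragments. The 12 fibroblast markers fixed as signs of feeder cells, which also express Pdgfra and laminin genes, summed to 284, 329 and 535 TPM in A129-2, AOS-14 and AOS-16, the same order as Lamb1. Fn1 made up most of each sum, at 244, 183 and 311 TPM, and was lowest in AOS-14. Collagen Col1a1 stood at 11.1, 56.4 and 95.4 TPM in that order of lines, and Lum and S100a4 were listed at 0 in A129-2. The part of feeder cells in the Lamb1 order was not tested.

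**Figure D3:**
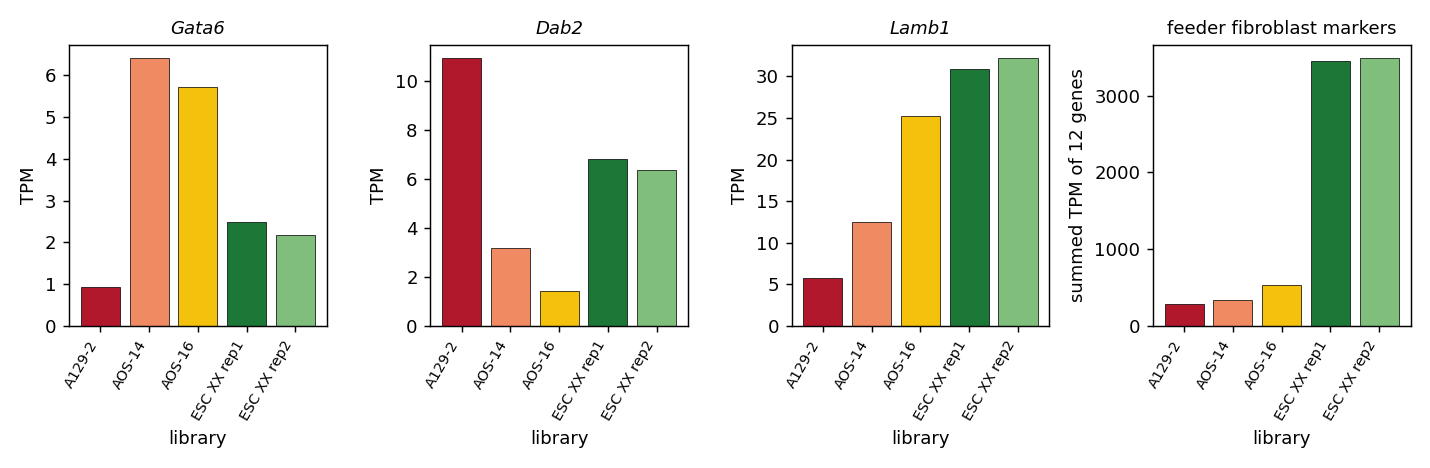
TPM of Gata6, Dab2 and Lamb1, and the summed TPM of 12 fibroblast markers, as 1 bar per library for the 3 AG-haESC lines and the 2 ESC XX libraries. A129-2 had the lowest Gata6 (0.923 TPM) and Lamb1 (5.78 TPM) and the highest Dab2 (10.9 TPM), and the fibroblast sum was 3455 and 3491 TPM in ESC XX, above every haploid line.

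Against ESC XX, both laminin chains were lower in AG-haESCs and the transcription factors met neither bound. No test was run, since the tables were normalised separately. A gene was called higher or lower where the group means of log2(TPM + 1), with the median difference over all genes removed (-0.10), differed by at least 1 and all haploid lines lay on 1 side of both ESC XX libraries. Of 14251 genes kept, 6.93% were higher, 7.82% lower and 14.7% either, a split of 987 higher and 1114 lower that was 644 and 1361 without centring. Of the 7 members kept, 2 were lower and none was higher. The 3 members that did not reach a TPM of 1 in these 5 libraries were Sox7, Foxa2 and Cubn.

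Lama1 had 4.80, 3.32 and 5.63 TPM in A129-2, AOS-14 and AOS-16, against 15.4 and 14.7 TPM in ESC XX. The groups did not overlap, and the difference was -1.44 ± 0.32 (log2, SD of the 3 lines). It stayed past the rule under each alternative run, between -1.60 with a pseudocount of 0.1 and -1.36 without AOS-14. Lamb1 had 5.78, 12.5 and 25.2 TPM in A129-2, AOS-14 and AOS-16, against 31.0 and 32.2 TPM in ESC XX. The lines again lay below both ESC XX libraries, with AOS-16 close to them, and the difference was -1.18 ± 0.98 (SD of the lines). Without A129-2 it was -0.60 and not past the rule, and without AOS-16 it was -1.63.

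Pdgfra was at 0.705, 0.740 and 0.857 TPM in A129-2, AOS-14 and AOS-16, against 1.33 and 1.12 TPM in ESC XX. All lines were below both ESC XX libraries, by a small difference of -0.23 ± 0.06 (SD of the lines). Dab2 was at 10.9, 3.18 and 1.42 TPM in the same lines, against 6.81 and 6.33 TPM in ESC XX. A129-2 lay above ESC XX and the AOS lines below, for a difference of -0.51 ± 1.17 (SD of the lines). Without A129-2 Dab2 was past the rule at -1.06, and without AOS-16 the difference turned to 0.04.

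Gata6 was at 0.923, 6.42 and 5.73 TPM in A129-2, AOS-14 and AOS-16, against 2.49 and 2.17 TPM in ESC XX. The AOS lines stood above ESC XX and A129-2 below, so the mean difference of 0.56 ± 1.09 (SD of the lines) met no bound, and without A129-2 it was past the rule at 1.28. Without AOS-14 the Gata6 difference was 0.12 and without AOS-16 it was 0.32. Gata4 was at 2.07, 1.63 and 3.41 TPM in the same lines, against 2.34 and 1.71 TPM in ESC XX, a difference of 0.23 ± 0.38. Sox17 was at 0.158, 0.648 and 1.54 TPM, against 0.966 and 0.502 TPM in ESC XX, a difference of 0.08 ± 0.57 whose sign turned without centring (-0.02), with a pseudocount of 0.1 (-0.10) and without replicate 2 of ESC XX (-0.12). For both genes the groups overlapped. Sox7 stood at 0.277, 0.350 and 0.499 TPM in A129-2, AOS-14 and AOS-16, against 0.0386 and 0.202 TPM in ESC XX. The 3 lines lay above both ESC XX libraries, but ESC XX held about 1.01 and 6.01 fragments of Sox7. Cubn was at 0.154, 0.0385 and 0.0461 TPM in the lines and at 0.139 and 0.121 TPM in ESC XX. Foxa2 was at 0.113, 0 and 0.0903 TPM in the lines and at 0.0631 and 0.165 TPM in ESC XX. Neither was separated between the groups.

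**Figure D4:**
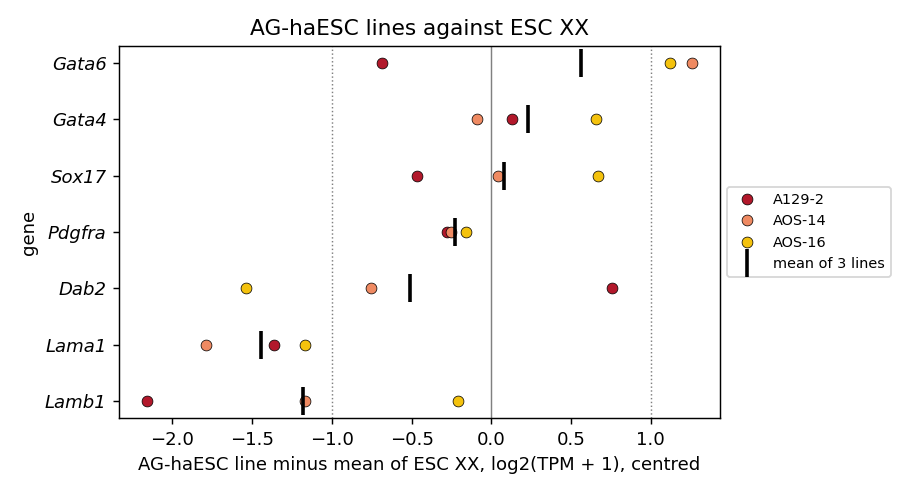
Difference of log2(TPM + 1), centred on the median of all genes, between each AG-haESC line and the mean of the 2 ESC XX libraries for the 7 members kept, with dotted lines at -1 and 1 and a bar at the mean of the 3 lines. Lama1 lay below -1 in all 3 lines, Lamb1 in 2 of them, and A129-2 lay on the other side of 0 from both AOS lines at Gata6, Dab2 and Sox17.

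Most fibroblast markers were also lower in AG-haESCs than in ESC XX. Of 12 markers 11 were lower in AG-haESCs by the same rule, and their sum was 284, 329 and 535 TPM in A129-2, AOS-14 and AOS-16, against 3455 and 3491 TPM in ESC XX. Col1a1 stood at 704 and 682 TPM and Acta2 at 585 and 588 TPM in ESC XX. No fibroblast marker was listed at 0 in ESC XX, AOS-14 or AOS-16. The AG-haESCs were collected by a sort and ESC XX by a step against feeders, and the strain and the medium also differed. The way of collection, the strain, the medium and the cell type cannot be told apart here. The part of feeder cells in the lower Lama1, Lamb1 and Pdgfra levels was not tested.

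Laminin works as a trimer with a gamma chain and binds collagen IV, nidogen and perlecan, and 19 partners of the basement membrane were read beside the members. Against round sperm 14 of the 17 tested rose and 2 fell, with a median log2 difference of 3.65 against -0.49 for all genes. They were led by Itgb1, a subunit of laminin-binding integrins (6.29 ± 0.52, log2 ± SE, limma adjusted p = 0.00532), Lamc1, the gamma chain of laminin-111 (5.78 ± 0.27, adjusted p = 0.00177), and Sparc, a matrix protein abundant in parietal endoderm (5.71 ± 0.25, adjusted p = 0.00156). Nid1, which bridges laminin and collagen IV (5.30 ± 0.72, adjusted p = 0.0141), and Itga6, an integrin subunit (4.79 ± 0.39, adjusted p = 0.00530), followed, and Nid1 lost its call without AOS-16 (adjusted p = 0.0701). The 2 that fell were Lamb3 and Lama2 (-3.56 and -1.62), named after their values were seen. Lamc1 stood at 113, 117 and 132 TPM in A129-2, AOS-14 and AOS-16, against 0.239 TPM in round sperm and 134 and 132 TPM in ESC XX, far above either Lama1 or Lamb1 in every embryonic stem cell library on this per-length scale. Itgb1, Lamc1, Nid1 and Itga6 had 0.276, 0.296, 0.204 and 0.242 FPKM in round sperm and passed the filter through the haploid lines alone. Lamb3 and Lama2 passed it through round sperm alone and Sparc through both, so the counts and median against round sperm are a description.

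Against ESC XX, 7 of the 17 partners kept were lower and none was higher, with a median of -0.70 against 0 for all genes. Lama2 (-2.24) and Lama4 (-2.23), laminin alpha chains of mesenchymal and vascular tissue, had the widest gaps. The collagen IV chains Col4a2 (-1.45) and Col4a1 (-1.25) and the proteoglycan Hspg2, or perlecan (-1.23), followed. Sparc was at 303, 302 and 354 TPM in A129-2, AOS-14 and AOS-16, against 807 and 802 TPM in ESC XX, and Sparc and the beta chain Lamb2, both named after their values were seen, were also lower. Col4a1, Hspg2 and Lamb2 lost their place past the rule without A129-2 (-0.91, -0.95 and -0.79). The difference of Lamc1, -0.04 ± 0.11, was smaller than the spread of the lines.

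**Figure D5:**
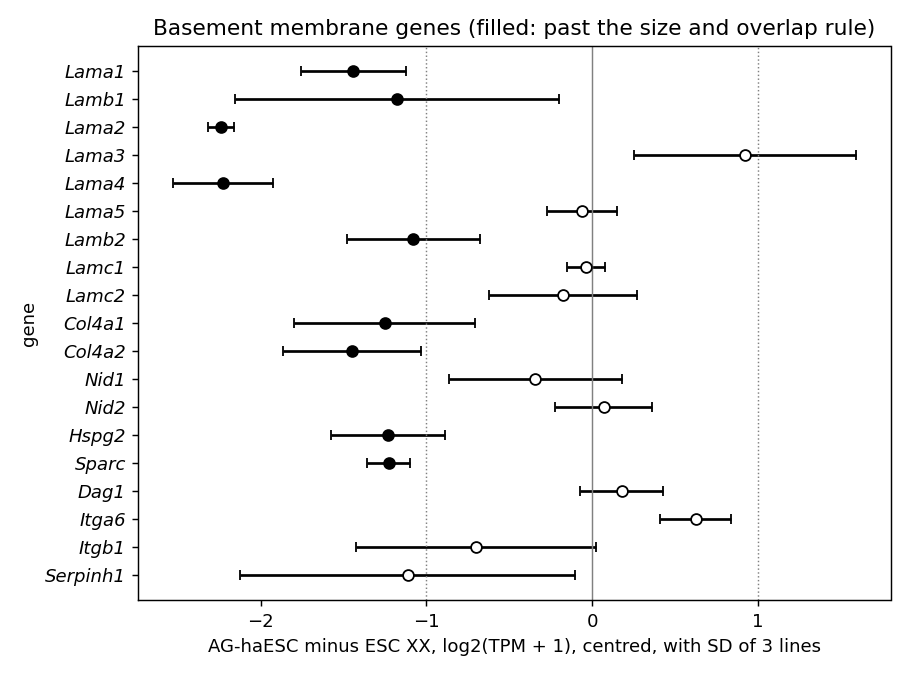
Difference of log2(TPM + 1), centred on the median of all genes, between AG-haESCs and ESC XX for Lama1, Lamb1 and 17 partners of the basement membrane, with the SD of the 3 lines. Filled points were past the size and overlap rule, all of them to the left of -1, while Lamc1, Lama5, Nid2 and Dag1 lay near 0 and the open point left of -1 is Serpinh1, whose groups overlapped once centred.

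Transcripts of 16 genes of the cascade from FGF4 to ERK, which favours primitive endoderm, were also read. Their levels do not measure the activity of the cascade. Against round sperm 10 rose and 2 fell (median 2.41 against -0.49 for all genes). Fgf4, the ligand made by epiblast cells, rose by 5.92 ± 0.18 (log2 ± SE, limma adjusted p = 0.000796), and Fgfr1, a receptor for it in the epiblast, by 5.00 ± 0.71 (adjusted p = 0.0157). The adaptor Grb2 rose by 4.72 ± 0.10 (adjusted p = 0.000320), the MEK gene Map2k1 by 4.60 ± 0.31 (adjusted p = 0.00356) and the phosphatase Ptpn11 by 3.40 ± 0.15 (adjusted p = 0.00156). Leaving out AOS-14 (adjusted p = 0.0501) or AOS-16 (adjusted p = 0.0711) ended the call of Fgfr1. Mapk3 and Map2k2 fell (-3.01 and -1.84) and were named after their values were seen, and the Map2k2 call was absent after rescaling (-0.78) or quantile normalization (-0.33). Against ESC XX, Fgfr2, the receptor that primitive endoderm cells carry, and Fgfr3 were higher in AG-haESCs and no gene of the 16 was lower. Fgfr2 stood at 15.9, 5.60 and 4.53 TPM in A129-2, AOS-14 and AOS-16, against 1.38 and 1.68 TPM in ESC XX, a difference of 1.86 ± 0.87 (SD of the lines). Fgfr3 stood at 2.19, 5.12 and 9.40 TPM in the same lines, against 1.20 and 1.36 TPM in ESC XX (1.47 ± 0.85). Fgf4 was at 144, 93.0 and 106 TPM in the lines, against 78.3 and 79.8 TPM in ESC XX, and did not reach the bound (0.61 ± 0.32). The list's median against ESC XX was 0.13. In round sperm Fgf4, Fgfr1 and Ptpn11 had 0.0973, 0.209 and 0.968 FPKM and passed the filter through the haploid lines alone. Grb2, Map2k1, Mapk3 and Map2k2 passed it through both, and the list's counts and median against round sperm are a description.

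Further genes of primitive and visceral endoderm were mixed. Of 22 genes, 13 were tested against round sperm, and 5 rose and 2 fell (median 1.26 against -0.49). Apoe, a lipid carrier that is also expressed in embryonic stem cells, rose by 5.25 ± 0.73 (log2 ± SE, limma adjusted p = 0.0148), Cited1, a transcriptional coactivator, by 4.49 ± 0.99 (adjusted p = 0.0385) and Otx2, a homeobox factor of visceral endoderm and epiblast, by 3.73 ± 0.26 (adjusted p = 0.00392). Srgn, a proteoglycan core protein, fell by 2.59 (SE 0.52, limma adjusted p = 0.0323). The calls of Apoe without AOS-16 (adjusted p = 0.0726), of Cited1 without AOS-14 (0.0831) or AOS-16 (0.130), and of Srgn without A129-2 (0.0892) or AOS-16 (0.110) were lost. The other 2 that rose, Hhex and Plat, were named after their values were seen, and both lost their calls without AOS-14 or AOS-16.

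Against ESC XX, 2 of the 15 genes kept were higher and 4 lower, and the median of 0.06 was close to the 0 of all genes. Cited1 stood at 36.0, 108 and 76.5 TPM in A129-2, AOS-14 and AOS-16, against 7.04 and 5.27 TPM in ESC XX (3.36 ± 0.80, SD of the lines). Otx2 was at 29.6, 16.5 and 19.1 TPM in the same lines, against 10.2 and 9.41 TPM in ESC XX (1.14 ± 0.42), and was at 0.99 without A129-2. Fst, which binds activin (-2.27 ± 0.60), Thbd, a thrombin receptor of parietal endoderm (-2.07 ± 0.44), and Dkk1, a secreted WNT inhibitor (-1.21 ± 0.12), were lower. Plat, the remaining gene that was lower, was at 5.00, 5.39 and 6.10 TPM in the lines, against 12.9 and 14.6 TPM in ESC XX, and was not past the rule without A129-2 (-0.94) or without replicate 2 of ESC XX, where its difference was just under the bound in size.

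Partners of the receptors, of the endocytic pair and of the transcription factors gave few calls. Among 5 PDGF genes, Pdgfd fell against round sperm with a log2 difference of -3.50 ± 0.08 (SE, limma adjusted p = 0.000456), and no other was called. Against ESC XX, Pdgfb was higher (1.40 ± 0.44, SD of the lines), and Pdgfrb (-2.10 ± 0.43), a receptor of fibroblasts and pericytes, and Pdgfd (-1.65 ± 0.14) were lower. Among 10 partners of CUBN and DAB2, the adaptor gene Ap2m1 (3.43 ± 0.22, log2 ± SE, limma adjusted p = 0.00323) rose against round sperm, and Ap2b1 (-3.09 ± 0.31, adjusted p = 0.00797) and Ap2a1 (-2.17 ± 0.17, adjusted p = 0.00493) fell. The calls of Ap2b1 and Ap2a1 ended after quantile normalization (adjusted p = 0.0833 and 0.130). Amn, which anchors CUBN at the membrane, had 0.425, 3.03 and 4.31 TPM in A129-2, AOS-14 and AOS-16, against 0.317 and 0.346 TPM in ESC XX, and was higher by 1.33 ± 1.00 (SD of the lines), or 0.99 without AOS-16, which does not meet the rule. Amn stood at 10.2 TPM in round sperm, the library where Cubn was highest too.

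Among 9 relatives and cofactors of the GATA, SOX and FOXA members, Zfpm2, a GATA cofactor, and Foxa3 fell against round sperm (-3.24 ± 0.13, limma adjusted p = 0.00131, and -2.16 ± 0.05, adjusted p = 0.000388, log2 ± SE). Against ESC XX, Gata3, a factor of trophoblast (1.69 ± 0.23, SD of the lines), and Gata1 (1.39 ± 0.61, 0.95 without AOS-14) were higher and Zfpm2 (-1.19 ± 0.22) was lower. Of the 9 epiblast factors 7 rose against round sperm and none fell, and none was past the rule against ESC XX. Nanog rose by 7.59 ± 0.27 (SE, limma adjusted p = 0.00102), and its difference from ESC XX was -0.27 ± 0.33 (SD of the lines). Of 7 mesendoderm markers, which overlap endoderm in Foxa2 and Sox17 expression, 1 (Gsc) was higher and 1 (T) lower than in ESC XX, named after their values were seen. The 7 summed to 13.3, 21.9 and 24.4 TPM in A129-2, AOS-14 and AOS-16, against 18.0 and 17.0 TPM in ESC XX. In round sperm they summed to 156 TPM, of which Mesp1, named after its value was seen, made up 149 TPM.

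For the 8 members that reached a TPM of 1 in a library, which leaves out Sox7 and Foxa2, the genes with the nearest profile were found over the 6 libraries, as the smallest Euclidean distance between log2(TPM + 1) values centred on each gene's mean, among 16752 genes. Nearest to Gata6 was Ggct (distance 0.41), which was at 8.29, 29.6 and 31.3 TPM in A129-2, AOS-14 and AOS-16, against 23.1 TPM in round sperm and 12.7 and 11.3 TPM in ESC XX, and then Hsd17b2 (0.70). Pkig (0.36) and Mapk15 (0.38) were nearest to Sox17, both highest in round sperm. Mmrn2 (0.50) and Nppb (0.54) were nearest to Dab2, and both were highest in A129-2. Sh3pxd2a (0.30) and Gjc1 (0.33) were nearest to Lama1, and Mcam (0.41) and Cbs (0.49) to Lamb1. The profiles nearest to Gata4 were those of Gnmt (0.19) and Rnf208 (0.20), to Pdgfra those of Trmt2a and Ccnl2 (both 0.17), and to Cubn those of Sytl5 (0.10) and Pknox1 (0.12). With 6 libraries such likeness is a description of these samples. The scale flattens the profiles of low members, so a small distance there does not mean a like fold change. Pdgfra stood at 0.0698 TPM in round sperm and 1.33 TPM in replicate 1 of ESC XX, where Trmt2a stood at 12.2 and 25.6 TPM.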

How the data were processed

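PolyA RNA was sequenced in 6 libraries. The authors deposited FPKM values per gene symbol, without counts. Per the submitters' processing notes TopHat2 2.0.13 and Cuffdiff 2.2.1 were used with mm9. Settings, scaling and strandedness of counting are not stated in the labels. The unit is named for the ESC XX tables, and for the other table it was taken from the tool and the values. An exact 0 in such files can be a failed estimate.

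AG-haESCs and round sperm share a table and were tested across all genes with limma 3.58.1 in R 4.3.3 on log2(FPKM + 1) with a mean-variance trend, for genes reaching an FPKM of 1 in any of the 4 libraries. For a gene that reached it in only 1 of the groups, the filter favours the direction found. The counts and medians of every list against round sperm are therefore descriptions. ESC XX came in separate tables and was compared in TPM by size and overlap, without a test. These scales understate changes of low genes. The p-values measure the spread between these cell lines, and round sperm has no replicate. Depth was estimated from low-value steps of 4115 genes with 1 annotated transcript, with lengths from GENCODE M21 (GRCm38) found for 98.5% of symbols. Fragments per member are approximate and cover counting error only. The methods were tested on simulated data. For limma, all libraries were drawn from the means and spread of the haploid lines, and only genes well expressed in the lines were changed. That simulation does not cover genes as low as the members, or a round sperm library of another cell type. Members, lists and rules were chosen with earlier results of these data known. All 10 members are named. From each further list the genes called were named, at most the 5 with the widest difference per comparison, plus Nanog and Fgf4, and marker lists by sums. Some genes that this rule names are not reported here. The pseudocount (0.1), filters, scaling, trend and each library were varied.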

Additional observations from a re-analysis of the deposited data

How the results depend on the processing

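Results named for single genes (71, with 663 values under alternatives) never turned direction once called. Over alternatives for the round sperm comparison, 26 values lost a call and 2 gained one, those being Lamb1 with a pseudocount of 0.1 (adjusted p = 0.0386) and without A129-2 (adjusted p = 0.0353). Gata4 also lost its call with no filter on low values (adjusted p = 0.0553) and without a mean-variance trend (adjusted p = 0.0504). The 4 members called against round sperm were 1 with an FPKM of at least 5 required, since fewer genes were then tested, and 2 to 4 without each line in turn, with 2 without AOS-14. Genes that rose numbered 3632 (2449 to 3469 without each line) and genes that fell 6232 (5243 to 5941). Calls that were higher in AG-haESCs made up 36.8% as deposited, 52.1% after rescaling and 51.1% after quantile normalization. Members past the rule against ESC XX stayed at 2 to 3 without each library, genes higher at 899 to 1303 and genes lower at 1130 to 1289, and genes higher were 644 without centring. Genes with a line apart from both others were 1417, and 2506 with a pseudocount of 0.1. No paired analysis was possible because the haploid lines and round sperm carry no shared replicate numbers. Members at a few fragments in the haploid lines (Foxa2, Cubn, Sox7) are limited by depth.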
